A study of Mus musculus with 12 samples.

Results

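Immediate early genes are genes that cells switch on within minutes of a stimulus, from transcription factors already present. The set described here joins many of them with stress-response genes and some more constitutive ones. It was taken as the rows of the deposited count table whose gene symbol is one of 40 names. These are FOS, JUN and related basic leucine zipper factors, EGR, NR4A and KLF factors, DUSP phosphatases and Errfi1, IER genes, RNA-decay genes, and stress genes. All 40 were found among the 54100 rows of the table, and all 40 were among the 8161 genes with enough counts to be tested. Each is a protein-coding gene in the GENCODE annotation of the mouse build GRCm38.

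RNA was measured in 12 libraries of mouse muscle mesenchymal progenitors, also called fibro-adipogenic progenitors, sorted as Pdgfra-positive cells from the plantaris. This calf muscle had been either sham operated or overloaded, and each tube received 1000 cells. The 4 groups of 3 libraries were control sham and control overload, from Pdgfra-CreERT2 mice, and cdKO sham and cdKO overload, from mice with Pdgfra-CreERT2 and, on both alleles, floxed Yap1 (Yap1 flox/flox) and floxed Taz (Taz flox/flox). All 4 groups therefore carried the Cre transgene driven by Pdgfra, and the cdKO groups were designed to lose Yap1 and Taz, the transcriptional coactivators of the Hippo pathway, in Pdgfra-expressing cells. The gene symbol of Taz is Wwtr1. The sources used here do not give the time from surgery to sampling, age, tamoxifen dosing, the floxed exons, or whether mice were pooled. Nothing in the labels says that libraries of a group came from separate mice, so p-values measure only the spread between libraries.

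Growth factors, stretch and injury reach these genes through MAP kinases, the serum response factor SRF with its ternary complex or MRTF partners, CREB and NF-kB. The proteins they encode drive later genes, and several, such as the DUSP phosphatases, Errfi1, Nfkbia and the RNA-binding Zfp36 proteins, shut the signal down again. Enzymatic dissociation and sorting are themselves known to induce many of them. All 12 libraries came from sorted cells, so a level here joins the state in the muscle with any induction on the way to lysis, and the part of the sort in the results was not tested.

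Library totals ran from 336437 to 1564581 counts, so 3 counts corresponded to 1.95 to 9.72 CPM, the usual depth-scaled counts, here on TMM-scaled library sizes. Wwtr1 was 108 to 174 CPM in the 6 control libraries and 18.2 to 40.6 CPM in the 6 cdKO libraries, with no overlap. The cdKO minus control difference was -1.74 ± 0.27 (log2, SE; adjusted p = 0.00733) after sham and -2.78 ± 0.28 (adjusted p = 1.83e-06) after overload. Yap1 was 91.6 to 108 CPM in control sham and 56.2 to 71.5 CPM in cdKO sham, without overlap, and 39.7 to 91.3 CPM in control overload and 22.1 to 40.2 CPM in cdKO overload, where the lowest control library lay just under the highest cdKO library. Its differences of -0.61 ± 0.30 after sham and -0.85 ± 0.32 after overload did not pass (adjusted p = 0.999 and 0.586). Whether reads of the 3′ end fall in the deleted parts is not known from the labels. Pdgfra, the sort marker, was lower in cdKO overload than in cdKO sham (-1.09 ± 0.26, adjusted p = 0.0062). In control it was 479 to 608 CPM after sham and 308 to 443 after overload, without overlap. That difference of -0.48 ± 0.26 did not pass (adjusted p = 0.186). The 2 genotypes did not differ in this change by their own test (-0.61 ± 0.36, adjusted p = 0.940).

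On the first principal component of all genes, control overload 1 (15.4) and cdKO overload 2 (7.61) lay nearer to the sham libraries (-45.4 to -31.6) than the other 4 overloaded libraries did (34.0 to 71.2). The summed level of 4 Y-linked genes was 64.9 and 68.9 CPM in control overload 2 and 3, against 118 to 270 CPM in the other 10 libraries. Mesenchymal progenitor markers (7 genes) summed to 75205 to 92955 CPM in control sham and 50989 to 72918 in control overload, without overlap, and to 81276 to 89577 in cdKO sham and 75030 to 83420 in cdKO overload. In each genotype 2 of the 7 rose with overload and 3 fell. Macrophage markers summed to at most 61.1 CPM. Endothelial markers (8 genes) summed to 130 to 225 CPM in control sham, 19.5 to 143 in control overload, 80.7 to 238 in cdKO sham and 37.1 to 70.2 in cdKO overload, and 1 of the 5 tested fell in each genotype. Pericyte and smooth muscle markers (8 genes) summed to 437 to 560, 187 to 289, 412 to 603 and 360 to 369 CPM in the same order, and 2 of the 6 tested fell in control and 1 in cdKO. No marker of either list was at 0 in all 12 libraries. In such bulk samples fewer cells of a type and less RNA per cell cannot be told apart, and the part of these cells in the results was not tested.

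Most of the early genes that changed with overload fell. In control, 23 of the 40 genes (57.5%) fell and 3 (7.5%) rose at an adjusted p under 0.05, beside 11% of all tested genes lower and 10.6% higher. In cdKO, 16 (40%) fell and 2 (5%) rose, beside 6.68% and 6.37% of all tested genes. The 40 genes were chosen with earlier results of these data known, so these shares are descriptions and not an independent test. The median log2 change of the 40 genes was -0.82 in control and -0.76 in cdKO, against -0.05 and -0.02 over all tested genes. The summed level of the 40 genes was 23442 ± 2152 CPM (SD, n = 3) in control sham and 13249 ± 1128 in control overload, and 22933 ± 2462 in cdKO sham and 14478 ± 2592 in cdKO overload. Sham libraries held 21140 to 25775 CPM and overloaded libraries 11853 to 17036 CPM, so the 2 loads did not overlap in this sum.

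In both genotypes 14 genes fell (Fos, Fosb, Junb, Atf3, Egr1, Klf2, Klf9, Dusp1, Zfp36, Zfp36l1, Btg2, Tob1, Gadd45g and Ppp1r15a) and Nr4a3 and Ier3 rose. A further 10 passed in control alone and Dusp5 and Gadd45b in cdKO alone, without a difference between genotypes that passed its own test. Neither genotype gave a call for 12 genes: Fosl1, Jun, Egr2, Nr4a2, Klf4, Klf6, Klf10, Dusp6, Ier2, Btg1, Sgk1 and Rhob. The 2 overloaded libraries nearest to sham were often the highest of their groups, control overload 1 for 24 of the 40 genes and cdKO overload 2 for 29. The sham groups also had a leading library, control sham 2 for 22 of the 40 genes and cdKO sham 2 for 20. Without control overload 1 and cdKO overload 2, a choice made after seeing the data, 24 genes fell and 3 rose in control, and 21 fell and 2 rose in cdKO. Over all tested genes the calls rose too, from 1768 to 2552 in control and from 1065 to 1583 in cdKO. Leaving out the overloaded libraries nearest to sham widens the difference by construction, so these counts are no support for it. With the Y-linked level as a covariate, also added after seeing the data, 14 genes passed in control, all lower, and 13 of the 26 calls missed the threshold. Of these 13, the log2 changes of Fosl2 (-0.33), Ier5 (-0.49) and Egr3 (0.14) shrank by more than 1.5 times. Those of Jund (-0.96), Maff (-0.92), Egr1 (-1.74), Nr4a1 (-1.04), Nr4a3 (0.99), Klf9 (-1.0), Errfi1 (-0.84), Ier3 (1.32), Csrnp1 (-0.84) and Nfkbia (-0.68) shrank by less or were as large as without the covariate. With no filter on low counts, Fosl2, Nr4a1, Errfi1, Csrnp1, Btg2 and Nfkbia missed the threshold in control (-0.79 to -0.64) and Klf9 (-0.84) and Zfp36l1 (-0.72) in cdKO. In cdKO Fosb missed it with the covariate (-0.95) and with only the groups compared in the fit (-1.1), and Dusp5 with limma voom (-1.61). In cdKO 9 genes passed without cdKO overload 1, and 9 without cdKO overload 3.

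**Figure D1:**
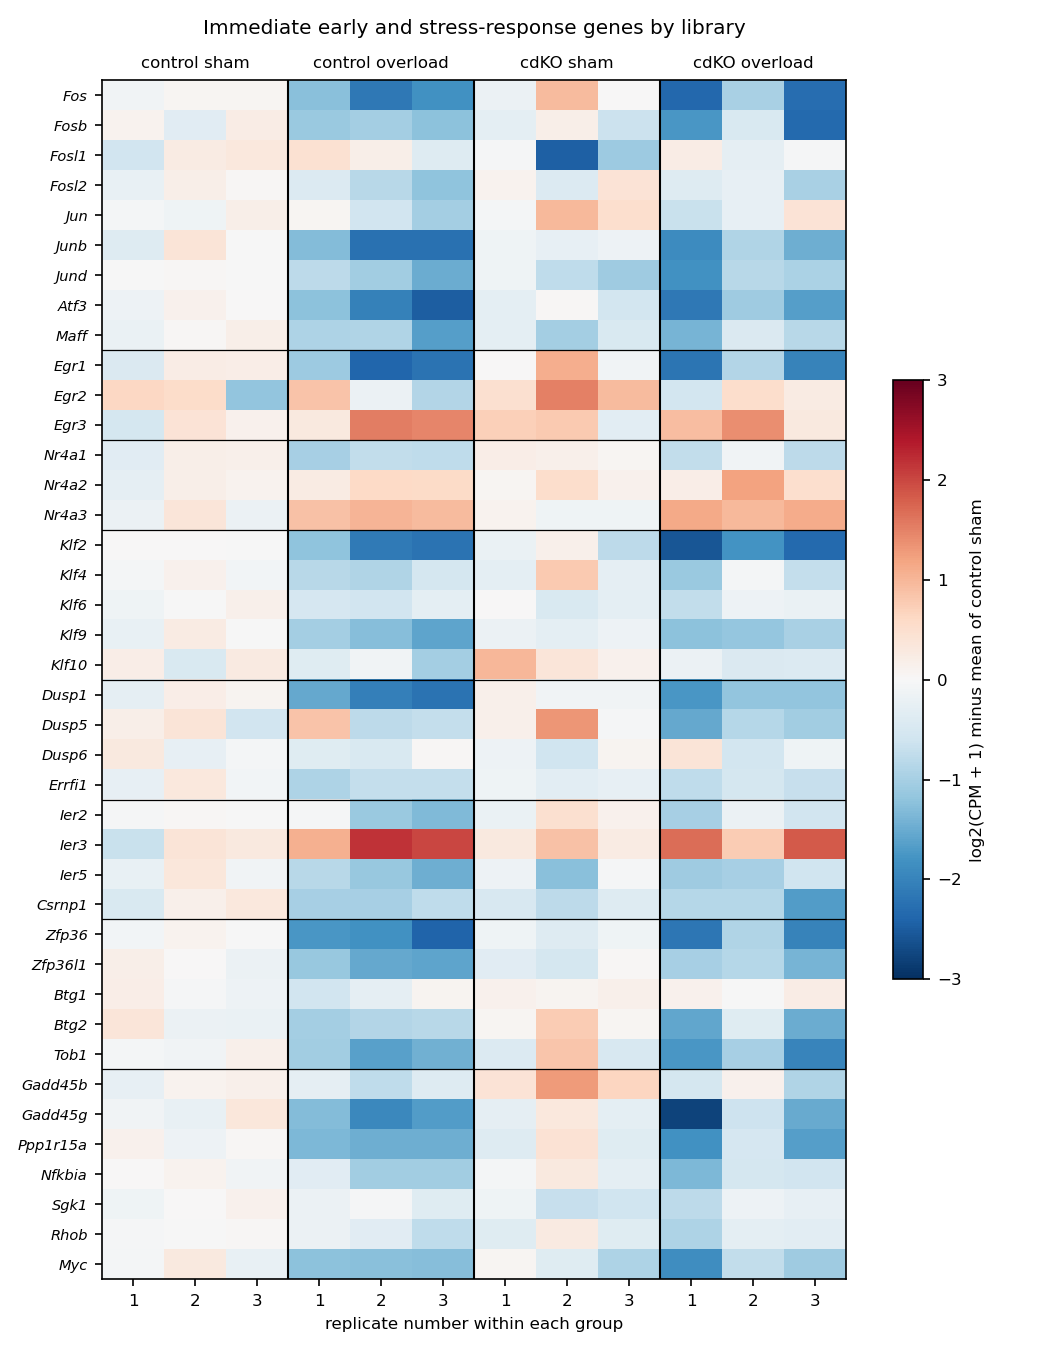
Levels of the 40 genes (rows, grouped by role with horizontal lines) in the 12 libraries (columns), as log2(CPM + 1) minus the mean of the 3 control sham libraries, with blue lower and red higher. The overloaded columns are blue for most rows in both genotypes, and red, in places pale, for Nr4a3, Ier3, Nr4a2 and Egr3.

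Promoter sequence was read for the members whose start regions are in RefSeq's table for GRCm38.p6, which held 34 of the 40. The 250 bases before each start were searched on both strands for 6 motifs. The cyclic AMP response element, TGACGTCA, bound by CREB and ATF factors, was in 5 of the 34 genes (14.7%: Btg2, Dusp1, Errfi1, Maff and Ppp1r15a) and in 1.77% of all 27025 genes with a window. The CArG box, bound by SRF, was in 3 (8.82%: Dusp5, Egr2 and Zfp36) against 1.62%. The EGR motif, GCGNGGGCG, was in 10 (29.4%) against 5.33%, the NF-kB motif in 7 (20.6%) against 8.23%, the TEAD motif, GGAATG, through whose factors Yap1 and Taz act, in 6 (17.6%) against 14.4%, and the AP-1 motif, TGANTCA, in 3 (8.82%) against 7.82%. Genes with several starts had more windows and so more chances of a match. Beside Ier3, which rose, the NF-kB motif was in Fos, Fosb, Fosl2, Maff and Nfkbia, which fell in control, and in Egr2, which did not pass. Beside Nr4a3, which rose, the TEAD motif was in Csrnp1, Errfi1 and Nr4a1, which fell in control, and in Egr2 and Sgk1, which did not pass. The stretches of 4 genes that moved opposite ways are printed: Dusp1 and Btg2, which fell, and Ier3 and Nr4a3, which rose. Each is the upstream stretch outside annotated exons, 5′ to 3′ on the gene's strand, at chr17:26508520-26508722 (minus), chr1:134079156-134079405 (minus), chr17:35821463-35821683 (plus) and chr4:48045055-48045152 (plus). Capitals mark the cyclic AMP response element in Dusp1 and Btg2 and an EGR motif further along in Btg2. They also mark the NF-kB motif in Ier3 and a TEAD motif in Nr4a3, both on the other strand.
Dusp1: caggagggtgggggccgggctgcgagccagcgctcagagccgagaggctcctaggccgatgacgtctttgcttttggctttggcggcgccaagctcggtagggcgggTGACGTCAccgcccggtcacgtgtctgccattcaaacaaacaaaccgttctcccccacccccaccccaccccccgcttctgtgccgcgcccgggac
Btg2: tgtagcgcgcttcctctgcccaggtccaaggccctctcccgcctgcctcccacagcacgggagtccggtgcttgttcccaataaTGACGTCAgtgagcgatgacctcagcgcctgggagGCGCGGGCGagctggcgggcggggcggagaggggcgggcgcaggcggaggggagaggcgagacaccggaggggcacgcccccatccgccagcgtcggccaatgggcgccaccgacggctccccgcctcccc
Ier3: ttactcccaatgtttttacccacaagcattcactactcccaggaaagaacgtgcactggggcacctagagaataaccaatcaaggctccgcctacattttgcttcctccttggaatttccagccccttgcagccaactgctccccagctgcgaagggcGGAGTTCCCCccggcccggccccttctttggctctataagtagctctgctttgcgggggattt
Nr4a3: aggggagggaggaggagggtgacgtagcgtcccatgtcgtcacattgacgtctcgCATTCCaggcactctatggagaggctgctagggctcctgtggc
These matches are descriptions of letters and not of bound sites.

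Among the AP-1 factors, FOS and JUN proteins that pair on DNA together with Atf3 and Maff, 7 of 9 fell in control overload and 4 of 9 in cdKO. Fos, the prototype of the group, held 565, 633 and 632 CPM in the 3 control sham libraries and 255, 137 and 172 in control overload. In cdKO it held 541, 1172 and 619 CPM after sham and 119, 309 and 125 after overload. Every overloaded library lay below every sham library, and cdKO sham 2 stood above the other shams. Fos fell by 1.71 ± 0.36 (log2, SE; adjusted p = 0.00199) in control and fell by 2.08 ± 0.36 (adjusted p = 0.000906) in cdKO. Junb, a JUN protein that can restrain Jun, was 2232, 3818 and 2874 CPM in control sham and 1182, 613 and 611 in control overload. It was 2664, 2436 and 2633 CPM in cdKO sham and 779, 1541 and 1049 in cdKO overload. Sham and overload did not overlap in either genotype, with a change of -1.90 ± 0.31 (adjusted p = 9.33e-05) in control and -1.2 ± 0.30 (adjusted p = 0.00987) in cdKO. Its annotation overlaps Prdx2 on the opposite strand. Counting by strand is not stated, so reads in the shared stretch may belong to either gene.

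Atf3, a stress-induced repressor of the ATF family, was 606, 731 and 680.4 CPM in control sham and 286, 164 and 119 in control overload. The cdKO libraries held 544, 685 and 454 CPM after sham and 149.9, 317 and 213 after overload. Loads were again separate, and the change was -1.84 ± 0.31 (adjusted p = 0.000128) in control and -1.31 ± 0.30 (adjusted p = 0.00531) in cdKO. Fosb, a close relative of Fos, was 757, 558 and 819.7 CPM in control sham, 322, 349 and 297 in control overload, 570.1, 789 and 452 in cdKO sham and 207, 509.6 and 139 in cdKO overload. The control loads were separate, whereas cdKO overload 2 reached into the cdKO sham range. Fosb fell by 1.14 ± 0.35 (adjusted p = 0.0245) in control and fell by 1.09 ± 0.35 (adjusted p = 0.0456) in cdKO, and this was among the least steady calls. In control it was lost on leaving out any 1 of control sham 1 and 3 and control overload 1, 2 and 3 (-1.16 to -0.99). In cdKO it was lost without any 1 of control sham 1, 2 and 3, control overload 3, cdKO sham 1 and 2, and cdKO overload 1 and 3 (-1.14 to -0.75), and without cdKO overload 2 it was -1.78. The cdKO calls of Junb (-0.99 and -1.15) and Atf3 (-1.08) missed the threshold without cdKO overload 1, and that of Junb also without cdKO overload 3.

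The other 3 that fell in control did not pass in cdKO. Jund, the most constitutive JUN protein, was 336, 346 and 337 CPM in control sham and 196, 164 and 120.2 in control overload, a change of -1.09 ± 0.28 (adjusted p = 0.00601). Its cdKO levels were 308, 199 and 160.4 CPM after sham and 95.8, 189.8 and 175 after overload, with a difference of -0.53 ± 0.28 (adjusted p = 0.228). The cdKO groups overlapped. Maff, a small MAF protein without an activation domain, was 209, 250.2 and 272 CPM in control sham and 127, 129 and 77.0 in control overload and fell by 1.13 ± 0.27 (adjusted p = 0.00408). In cdKO it was 196, 119.7 and 176 CPM after sham and 91.2, 179 and 136 after overload, -0.26 ± 0.27 (adjusted p = 0.596). Here too the cdKO groups overlapped. Fosl2, a FOS-related factor of matrix-producing cells, was 309, 409 and 369 CPM in control sham, 272, 201 and 156 in control overload, 387, 269.7 and 479 in cdKO sham and 273, 303 and 184 in cdKO overload. It fell by 0.80 ± 0.27 (adjusted p = 0.0361) in control, against -0.57 ± 0.27 (adjusted p = 0.162) in cdKO. The Fosl2 call was lost without any 1 of control sham 1, 2 and 3, control overload 2 and 3, cdKO sham 1 and cdKO overload 1 (-0.88 to -0.60) and with the Y-linked covariate (-0.33, adjusted p = 0.646), and that of Jund without control overload 3 (-0.89). Jun, the partner of FOS proteins, ranged from 721 to 1646 CPM in control and 916 to 2884 CPM in cdKO, and its log2 differences of -0.45 and -0.63 did not pass. Fosl1, the other FOS-related factor, ranged from 11.5 to 93.0 CPM and did not pass (0.06 and 0.97). Jun, Jund, Atf3 and Fosl1 each overlap another gene on the opposite strand.

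**Figure D2:**
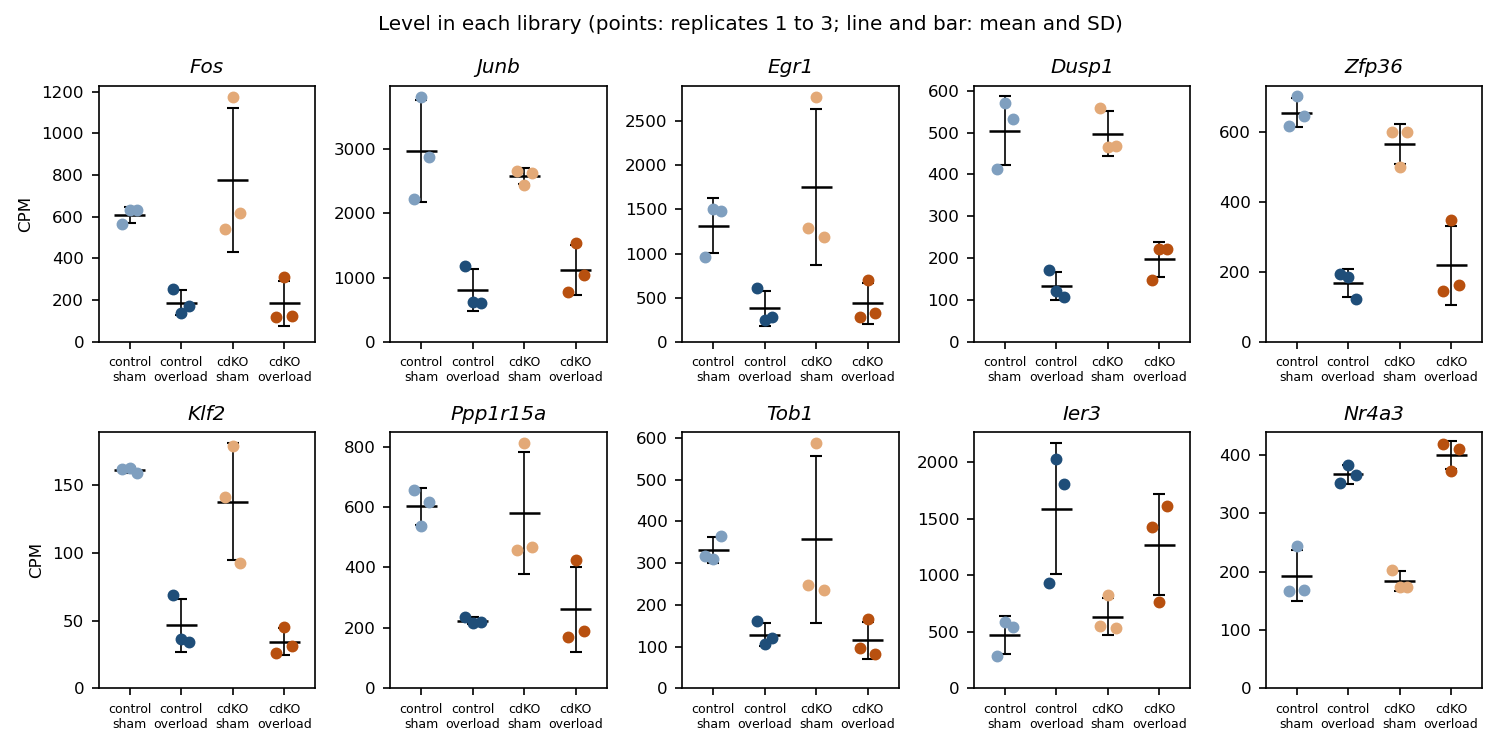
CPM (vertical axis, from 0) of 10 genes in each of the 4 groups of 3 libraries, with points for libraries, lines for means and bars for SD. Fos, Junb, Egr1, Dusp1, Zfp36, Klf2, Ppp1r15a and Tob1 are lower after overload in both genotypes, and Ier3 and Nr4a3 are higher.

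The EGR zinc-finger factors split. Egr1, which ERK and SRF induce, was 962, 1508 and 1481 CPM in control sham and 609.9, 247 and 278 in control overload. It was 1291, 2769 and 1191 CPM in cdKO sham and 281, 706 and 321 in cdKO overload. No overloaded library reached its shams, and cdKO sham 2 was the highest of all 12. Egr1 fell by 1.81 ± 0.43 (adjusted p = 0.00685) in control and fell by 2.01 ± 0.43 (adjusted p = 0.00654) in cdKO, where the call missed the threshold without cdKO overload 3 (-1.83). Egr3, a close relative of Egr1, moved the other way: 18.0, 35.5 and 29.2 CPM in control sham and 32.7, 78.5 and 74.7 in control overload, with control overload 1 inside the sham range. It rose by 1.17 ± 0.39 (adjusted p = 0.033). Its cdKO levels were 44.0, 46.9 and 21.3 CPM after sham and 51.0, 71.5 and 32.6 after overload, 0.42 ± 0.37 (adjusted p = 0.501). This rise was lost without control sham 1, control sham 3, control overload 2 or control overload 3 (0.97 to 1.24). With the Y-linked level as covariate it was 0.14. The 2 control overload libraries with the higher Egr3 values were those with the low Y-linked level. Egr2, known for myelination and fibroblast activation, ranged from 22.7 to 152 CPM and did not pass (-0.21 ± 0.46 and -0.91 ± 0.44).

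The 3 NR4A genes, orphan nuclear receptors that act without a known natural ligand, did not move together. Nr4a3 was 167, 243 and 168 CPM in control sham and 351, 384 and 365 in control overload. It was 203, 173 and 174 CPM in cdKO sham and 419, 373 and 409.8 in cdKO overload. All 6 overloaded libraries exceeded all 6 shams, and Nr4a3 rose by 0.91 ± 0.23 (adjusted p = 0.0057) in control and 1.13 ± 0.23 (adjusted p = 0.00199) in cdKO. Nr4a1 was 685, 983 and 972 CPM in control sham and 436, 523 and 509 in control overload, and fell by 0.85 ± 0.25 (adjusted p = 0.0171). The cdKO libraries, 1003, 958 and 897 CPM after sham and 521, 809 and 499.6 after overload, also did not overlap, and the difference of -0.64 ± 0.25 did not pass (adjusted p = 0.088). The control call of Nr4a1 was lost without control sham 2 or 3 or control overload 2 or 3 (-0.86 to -0.71). Nr4a2 ranged from 559 to 770 CPM in control sham and 808 to 1026 in control overload and did not pass (0.47 ± 0.27, and 0.45 ± 0.27 in cdKO).

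Klf2 and Klf9 fell in both genotypes, out of 5 KLF factors. Klf2, a factor best known from flow-exposed endothelium and quiescent cells, was 162, 163 and 159 CPM in control sham and 68.9, 36.3 and 33.9 in control overload. It was 141, 179 and 92.8 CPM in cdKO sham and 26.3, 45.5 and 31.4 in cdKO overload. The loads were apart in both genotypes, with changes of -1.85 ± 0.30 (adjusted p = 8.91e-05) and -2.01 ± 0.31 (adjusted p = 0.00013). Endothelial markers summed to 130 to 225 CPM in control sham and 19.5 to 143 in control overload beside it, and their part in the Klf2 values was not tested. Klf9, a glucocorticoid-induced factor, was 971, 1349 and 1137 CPM in control sham and 562, 469 and 381 in control overload. The cdKO values were 1017, 935 and 1023 CPM after sham and 488, 509.6 and 578 after overload. Again no overloaded library reached a sham, and Klf9 fell by 1.30 ± 0.24 (adjusted p = 0.000431) and fell by 0.92 ± 0.24 (adjusted p = 0.0129), the latter lost without cdKO overload 1 (-0.86). Klf4, the stress and pluripotency factor, had 653, 746 and 645 CPM in control sham and 381, 365 and 472 in control overload without overlap, and -0.75 ± 0.30 did not pass (adjusted p = 0.0723). Klf6 and Klf10, both linked to TGF-beta signalling, did not pass either (-0.46 and -0.42 in control, -0.10 and -0.89 in cdKO).

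Genes that switch off kinase signalling were mixed. Dusp1, the nuclear phosphatase of p38 and JNK, was 412, 570.1 and 531 CPM in control sham and 171, 121 and 107 in control overload. It was 559, 465 and 468 CPM in cdKO sham and 148, 221 and 221 in cdKO overload. The highest overloaded library was below the lowest sham in each genotype. Dusp1 had the smallest adjusted p of the 40 genes in control, with a change of -1.94 ± 0.26 (adjusted p = 9.58e-06), and fell by 1.33 ± 0.25 (adjusted p = 0.000954) in cdKO. Errfi1, the inhibitor of EGF receptors, was 266, 388 and 298 CPM in control sham, 165, 191 and 190.3 in control overload, 286, 251 and 263 in cdKO sham and 185, 218 and 193 in cdKO overload. The loads were separate in both genotypes, and the change of -0.80 ± 0.23 passed in control (adjusted p = 0.0123) while -0.42 ± 0.23 in cdKO did not (adjusted p = 0.236). The control call was lost without control sham 2 (-0.57) or control overload 2 (-0.81). Dusp5, a nuclear ERK phosphatase, was 22.5, 26.0 and 13.0 CPM in control sham, 36.2, 11 and 11.7 in control overload, 22, 51.0 and 19.3 in cdKO sham and 6.18, 10.4 and 8.98 in cdKO overload. It rested on 4 to 49 counts a library and fell by 1.88 ± 0.51 (adjusted p = 0.0152) in cdKO, against -0.25 ± 0.50 in control. Without cdKO sham 2, cdKO overload 1 or cdKO overload 3 the Dusp5 call was lost (-1.27, -1.71 and -1.92). Dusp6, the cytoplasmic ERK phosphatase that reads out ERK activity, ranged from 46.9 to 92.7 CPM over the 12 libraries, with -0.27 ± 0.29 in control and 0.16 ± 0.29 in cdKO. Dusp1, Dusp5 and Errfi1 overlap genes on the opposite strand.

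Ier3, a short-lived regulator of survival that NF-kB induces, rose most among the 40 genes in control. It was 282, 585 and 544 CPM in control sham and 934, 2028 and 1804 in control overload. In cdKO it was 550.0, 820.5 and 533 CPM after sham and 1429, 766 and 1613 after overload. The control loads were apart, with control overload 1 the lowest of its group, and cdKO overload 2 lay within the cdKO sham range. Ier3 rose by 1.76 ± 0.34 (adjusted p = 0.000765) in control and 1.0 ± 0.33 (adjusted p = 0.0493) in cdKO. The cdKO call was lost without any 1 of control sham 2 and 3, control overload 3, cdKO sham 1, 2 and 3, and cdKO overload 1 and 3 (0.79 to 1.21). Ier5, a regulator of the heat shock factor HSF1, was 892, 1319 and 978 CPM in control sham and 584, 473 and 379 in control overload, and fell by 1.16 ± 0.29 (adjusted p = 0.00555). The cdKO levels of 937, 438 and 1028 CPM after sham and 502, 523 and 690.5 after overload overlapped (-0.48 ± 0.29, adjusted p = 0.296). Csrnp1, a nuclear protein induced by AXIN1, was 236, 359.6 and 405 CPM in control sham, 162, 162 and 191 in control overload, 233, 187 and 249 in cdKO sham and 179, 178 and 101 in cdKO overload. Its loads were separate in both genotypes, with a change of -0.95 ± 0.26 (adjusted p = 0.00939) in control and a difference of -0.55 ± 0.26 (adjusted p = 0.173) in cdKO. The control calls were lost without control sham 2 for Ier5 (-0.92; -0.49 with the Y-linked covariate, adjusted p = 0.482) and without control sham 2, control sham 3 or control overload 2 for Csrnp1 (-0.87 to -0.76). The Csrnp1 annotation overlaps Cx3cr1 on the same strand. Ier2, a small nuclear early protein, did not pass (-0.78 ± 0.32 and -0.73 ± 0.31), although its control loads did not overlap.

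Of the 5 genes of RNA decay and growth restraint, 4 fell in each genotype. Zfp36, or tristetraprolin, which removes AU-rich messages including those of early genes and cytokines, was 619, 703 and 648 CPM in control sham and 195, 186 and 123 in control overload. It was 599, 501 and 601 CPM in cdKO sham and 145, 349.7 and 162 in cdKO overload. The shams were at least 501 CPM and the overloaded libraries at most 350 CPM, and Zfp36 fell by 1.97 ± 0.29 (adjusted p = 3.36e-05) and fell by 1.37 ± 0.29 (adjusted p = 0.00252). Zfp36l1, its paralog, was 2590, 2324 and 2031 CPM in control sham and 1053, 796 and 773 in control overload. The cdKO libraries were at 1826, 1591 and 2343 CPM after sham and 1156, 1279 and 869 after overload. Loads were separate, with changes of -1.41 ± 0.26 (adjusted p = 0.000361) and -0.80 ± 0.25 (adjusted p = 0.0372), and the cdKO call was lost without any 1 of control sham 2 and 3, control overload 2, cdKO sham 1 and 3, and cdKO overload 1 and 3 (-0.85 to -0.64). Both genes overlap a gene on the opposite strand.

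Tob1, an antiproliferative protein that recruits the CCR4-NOT deadenylase, was 318, 309 and 366 CPM in control sham and 160.2, 105 and 121 in control overload. It was 247, 587 and 236 CPM in cdKO sham and 97.3, 165 and 83.1 in cdKO overload. The cdKO sham libraries spread widely, with library 2 far above the others, and still no overloaded library reached them. Tob1 fell by 1.37 ± 0.32 (adjusted p = 0.00397) and fell by 1.64 ± 0.32 (adjusted p = 0.00179). Btg2, of the same family and a p53 target, was 378, 259.8 and 256 CPM in control sham, 145, 158 and 165 in control overload, 304, 495 and 303 in cdKO sham and 98.9, 228 and 104 in cdKO overload. Sham and overload were separate, and Btg2 fell by 0.93 ± 0.29 (adjusted p = 0.0239) and fell by 1.36 ± 0.29 (adjusted p = 0.00326). The control call of Btg2 was lost without control sham 1 (-0.71) or any 1 of the 3 control overload libraries (-0.94 to -0.84). Btg1, the remaining member, stayed between 98.2 and 172 CPM in all 12 libraries (-0.24 ± 0.23 and -0.01 ± 0.23).

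Among 7 further stress and growth genes, 4 fell in control and 3 in cdKO. Ppp1r15a, or GADD34, which lets translation resume after eIF2alpha phosphorylation, was 655, 536 and 616 CPM in control sham and 236, 217 and 218 in control overload. It was 458, 812 and 468 CPM in cdKO sham and 169.9, 424 and 189.7 in cdKO overload. No overloaded library reached a sham, and it fell by 1.43 ± 0.30 (adjusted p = 0.00153) and fell by 1.15 ± 0.30 (adjusted p = 0.0129). Gadd45g, a stress sensor upstream of p38 and JNK, was 162, 149 and 220.3 CPM in control sham, 70.6, 44.8 and 53.7 in control overload, 145, 219 and 143 in cdKO sham and 24.7, 113 and 60.6 in cdKO overload. It was again separate between loads and fell by 1.66 ± 0.37 (adjusted p = 0.0028) and fell by 1.35 ± 0.36 (adjusted p = 0.0168). Its relative Gadd45b was 90.1, 116 and 119.9 CPM in control sham, 89.6, 63.0 and 81.7 in control overload, 143, 262 and 168 in cdKO sham and 74.2, 118 and 57.3 in cdKO overload. Gadd45b fell by 1.22 ± 0.28 (adjusted p = 0.00531) in cdKO, where the shams were all above the control shams, and -0.49 ± 0.29 in control did not pass (adjusted p = 0.234). In cdKO the calls of Ppp1r15a and Gadd45g were lost without cdKO sham 2, cdKO overload 1 or cdKO overload 3 (-0.96 to -0.85 and -1.28 to -0.98), and that of Gadd45b without cdKO overload 3 (-1.0).

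Myc, the growth-promoting transcription factor, was 221, 279 and 194 CPM in control sham and 96.5, 95.4 and 93.4 in control overload, and fell by 1.29 ± 0.28 (adjusted p = 0.00166). The cdKO libraries overlapped, with 238, 178 and 119.8 CPM after sham and 61.8, 138 and 109 after overload (-0.79 ± 0.28, adjusted p = 0.0614). Nfkbia, the inhibitor that holds NF-kB in the cytoplasm and is itself an NF-kB target, was 894, 946 and 819.7 CPM in control sham, 696, 432 and 427 in control overload, 851, 1092 and 723 in cdKO sham and 348, 609.8 and 597 in cdKO overload. The loads were apart in both genotypes, and estimates were alike, with -0.78 ± 0.27 in control (adjusted p = 0.0403) and -0.78 ± 0.27 in cdKO (adjusted p = 0.0573). The control call of Nfkbia was lost without any 1 of control sham 1, 2 and 3, control overload 2 and 3, and cdKO sham 1 and 3 (-0.80 to -0.63). Sgk1, a hormone- and stress-induced kinase, ranged from 671 to 1254 CPM with log2 differences of -0.19 and 0.08. Rhob, the early-induced small GTPase, ranged from 83.4 to 193 CPM with -0.41 and -0.38. Neither passed.

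Across the 40 genes the overload changes in control and in cdKO, which share no library, had the same sign for 38 genes and a Pearson r of 0.80. This is across genes of one network, which are not independent replicates, and both changes come from a fit with a shared estimate of the spread. No such values over all tested genes are given beside them, so they are not read as a trait of the 40. The opposite signs were those of Dusp6 and Sgk1, whose changes did not pass in either genotype.

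**Figure D3:**
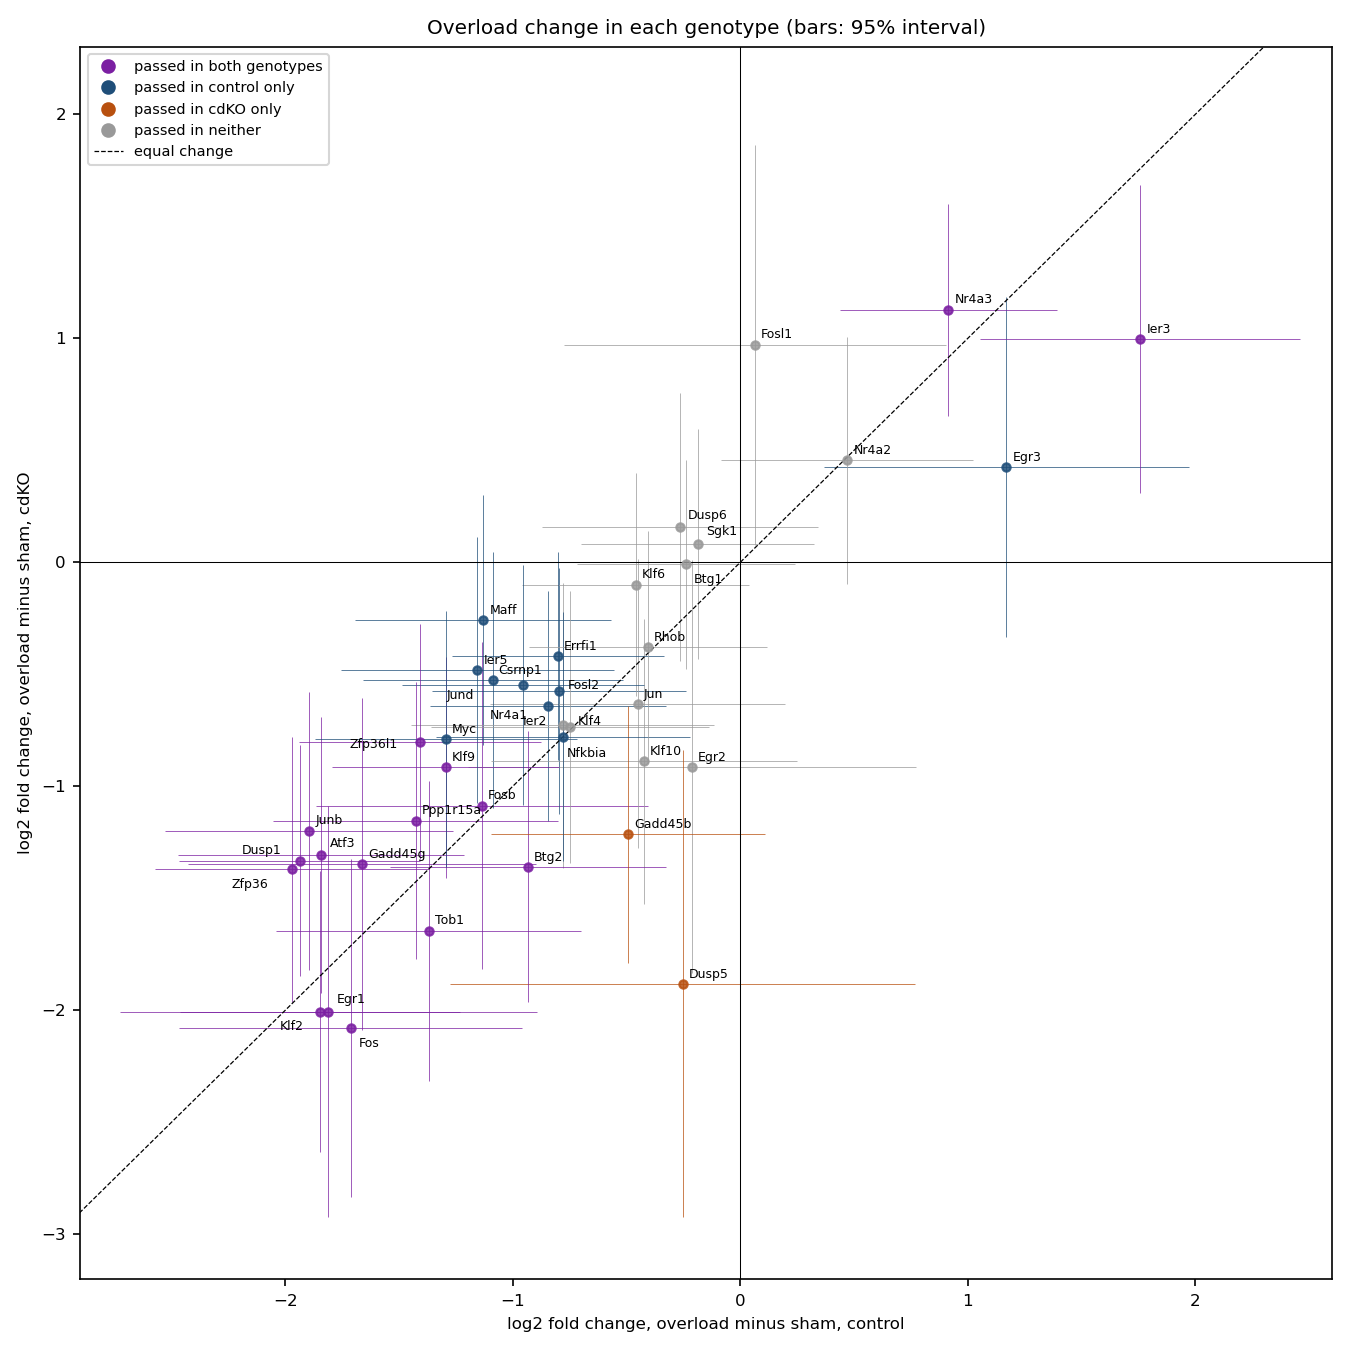
Log2 change from sham to overload in control (horizontal) against that in cdKO (vertical) for the 40 genes, with 95% intervals and colour for the genotypes in which a gene passed. Most points lie below 0 on both axes near the line of equal change, and Nr4a3, Ier3, Nr4a2, Egr3 and Fosl1 lie above 0 on both.

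None of the 40 genes differed between cdKO and control in the test across all genes. After sham 0 of 40 passed in edgeR's test, beside 0% of all tested genes higher and 0.0123% lower. After overload 0 of 40 passed, beside 0.0123% and 0.0245%. The interaction, the overload change in cdKO minus that in control, gave 0 of 40 beside 0% in either direction. The genotype difference averaged over loads gave 0 of 40 beside 0% higher and 0.0123% lower. DESeq2 and limma voom also called 0 of the 40 in each of these. At an unadjusted p under 0.05 there were 5 genes after sham, 1 after overload, 2 for the interaction and 2 for the average. The share of all tested genes under that p is not given, and some genes fall under it with no true difference. These counts are therefore not read as a trait of the 40.

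The 5 after sham were Gadd45b, Fosl1, Jund, Csrnp1 and Maff. Gadd45b was 0.83 ± 0.28 higher in cdKO (95% interval 0.25 to 1.41, adjusted p = 0.999 in edgeR) with all 3 cdKO shams above all 3 control shams. Jund (-0.61 ± 0.28) and Maff (-0.58 ± 0.27) were lower in all 3 cdKO shams, and Fosl1 (-1.04 ± 0.44) and Csrnp1 (-0.58 ± 0.26) overlapped between genotypes. After overload Dusp1 was 0.58 ± 0.25 higher in cdKO (95% interval 0.06 to 1.10, adjusted p = 0.658 in edgeR), with overlap. The interaction genes were Maff, 0.87 ± 0.39 (95% interval 0.08 to 1.67), and Dusp5, -1.63 ± 0.71 (95% interval -3.10 to -0.16). For the average they were Gadd45b and Csrnp1. These differences failed the correction for multiple tests and are named after their values were seen.

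The intervals show which sizes these libraries could not exclude. For Fos the cdKO minus control interval was -0.37 to 1.08 after sham and -0.76 to 0.74 after overload, and its interaction interval -1.41 to 0.67. Nr4a3, whose groups were tight, gave -0.57 to 0.40, -0.33 to 0.58 and -0.45 to 0.88. Klf9 gave -0.71 to 0.27, -0.33 to 0.65 and -0.31 to 1.07. Ier3, with -0.76 ± 0.47 for the interaction, had an interval of -1.73 to 0.21, and Junb, with 0.70 ± 0.42, one of -0.17 to 1.57. Missing the threshold does not show that the genotypes had equal levels.

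**Figure D4:**
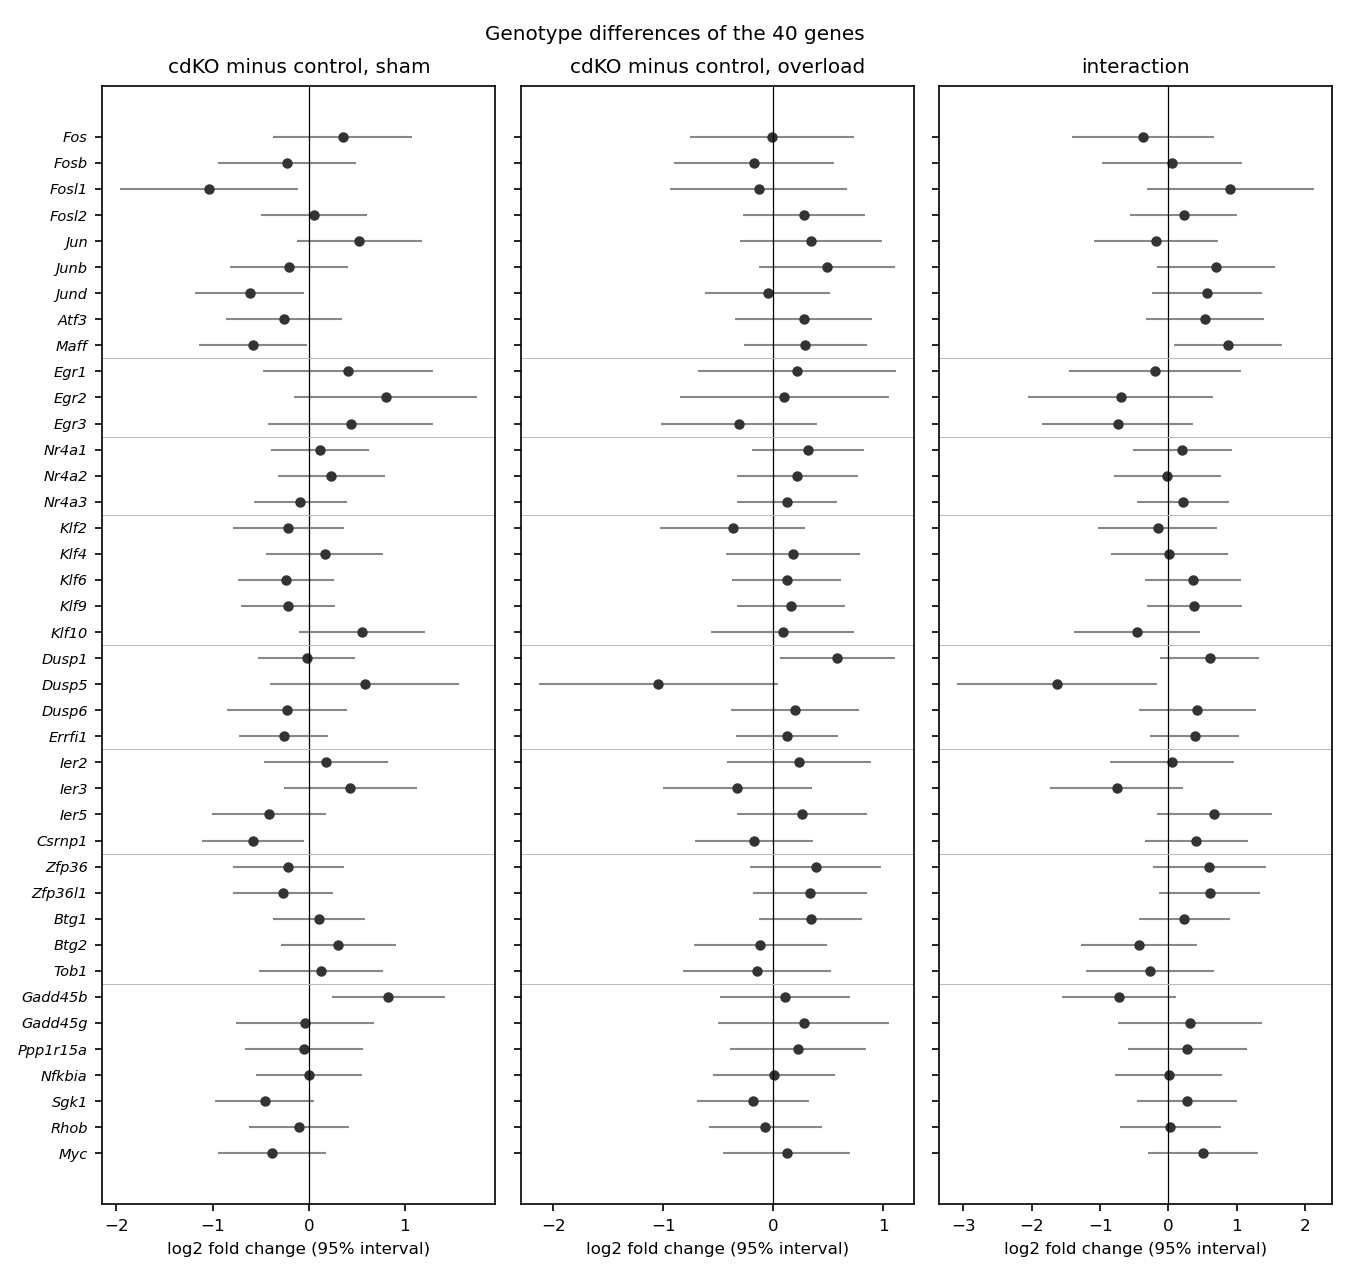
Log2 differences with 95% intervals for the 40 genes between cdKO and control after sham (left), after overload (middle), and for the interaction (right). Most intervals include 0, and none of the 40 passed after adjustment over all tested genes.

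The 13 lists of genes around these pathways (211 entries), from Mapk kinases to heat shock genes, were read in the same fit. Each list's counts stand beside 10.6% of all tested genes higher and 11% lower in control, and 6.37% and 6.68% in cdKO. Of the upstream MAP kinase and SRF factors, in control 1 of 16 tested rose (Map2k2, the ERK kinase MEK2, by 0.83 ± 0.26) and 1 fell (Mapk3, which is ERK1, fell by 1.12 ± 0.28), and in cdKO 0 of 16 passed by edgeR, with 4 at an unadjusted p under 0.05. ERK feedback and ETS target genes gave 2 higher and 2 lower of 15 in control, and 2 and 1 in cdKO. Lif, a cytokine of the interleukin-6 family, went from 24.8 ± 2.18 CPM (SD, n = 3) in control sham to 397 ± 153 in control overload, and rose by 4.0 ± 0.66 (adjusted p = 0.0013) in control and 3.71 ± 0.64 (adjusted p = 0.00327) in cdKO. Ereg, an EGF receptor ligand near the counting floor in sham, also rose, while Spry1, a receptor kinase inhibitor, fell by 1.59 ± 0.46, and Emp1 fell by 0.71 ± 0.26, in control. The remaining DUSP phosphatases gave 0 calls of 9 in control by edgeR, with 0 at an unadjusted p under 0.05, and 1 in cdKO (Dusp10, higher by 1.2 ± 0.32). The other AP-1, MAF and ATF factors gave 0 higher and 3 lower of 14 in control (Jdp2, Maf and Atf5), the other KLF and SP factors 0 and 1 of 10 (Klf13), and the other RNA-decay genes 3 and 1 of 18 (higher Cnot9, Elavl1 and Khsrp, lower Pan3). In cdKO the same lists gave 1 and 1, 0 and 2, and 1 and 0.

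Among early response genes outside the 40, 1 rose and 6 fell of 20 in control, and likewise 1 and 6 in cdKO. Id3, an inhibitor of basic helix-loop-helix factors, fell by 2.32 ± 0.34 (adjusted p = 4.91e-05), Trib1 fell by 1.56 ± 0.32, Arc fell by 1.08 ± 0.28, and Socs3, the cytokine feedback inhibitor, fell by 2.79 ± 0.52 (adjusted p = 0.00189), all in control. Glucocorticoid-responsive genes gave 1 higher and 7 lower of 14 in control and 1 and 6 in cdKO, with medians of -0.86 and -1.08. Tsc22d3, the glucocorticoid-induced leucine zipper gene, fell by 2.2 ± 0.34 (adjusted p = 5.58e-05) in control and fell by 1.67 ± 0.31 (adjusted p = 0.000943) in cdKO, and Zbtb16 fell by 2.93 ± 0.46 and fell by 2.67 ± 0.45. The cell-cycle inhibitors Cdkn1a (2206 ± 196 CPM in control sham, 652 ± 253 in control overload) and Cdkn1c (228 ± 67.0 and 38.1 ± 13.3) changed by log2 -1.76 ± 0.28 and -2.62 ± 0.35. Growth arrest and p53 genes gave 0 higher and 3 lower of 11 in control (Cdkn1a, Ccng2 and Gadd45a) and 1 and 1 in cdKO.

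The integrated stress response and the SRF and MRTF cytoskeletal lists had more calls higher than lower. Integrated stress response genes gave 7 higher and 1 lower of 11 in control and 6 and 1 in cdKO, with medians of 1.21 and 1.09. This list holds neither Atf3 nor Ppp1r15a, stress genes described above that fell in both genotypes. Psat1, of serine synthesis, went from 65.8 ± 12.3 to 359 ± 103 CPM in control and rose by 2.42 ± 0.30 (adjusted p = 3.16e-06), Shmt2, the mitochondrial one-carbon enzyme, by 1.77 ± 0.25, and Asns, asparagine synthetase, by 2.85 ± 0.55, whereas Vldlr fell by 1.85 ± 0.30. Cytoskeletal targets of SRF and MRTF gave 7 higher and 2 lower of 14 in control and 2 and 0 in cdKO, with medians of 1.15 and 0.66. Acta2, smooth muscle actin, went from 12.6 ± 5.60 to 275 ± 79.0 CPM in control and from 11.5 ± 5.95 to 142 ± 80.9 in cdKO, rising by 4.54 ± 0.53 (adjusted p = 1.8e-05) and 3.66 ± 0.51 (adjusted p = 0.000285). Tagln and Flna rose in control by 2.66 ± 0.51 and 1.37 ± 0.27, and Fhl1 fell by 1.36 ± 0.27. The difference between genotypes did not pass for any gene of these lists. NF-kB pathway genes gave 2 higher and 1 lower of 11 in control and 3 and 1 in cdKO: Nfkb1 rose by 0.90 ± 0.27 and 1.16 ± 0.27, and Nfkb2 by 1.09 ± 0.31 in control.

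Heat shock genes, which dissociation is also known to induce, were read beside them. Of 16 tested, 6 fell and 2 rose in control, and 2 fell and 1 rose in cdKO. The 2 that rose in control were the mitochondrial chaperones Hspe1, by 1.5 ± 0.28, and Hspd1, by 1.46 ± 0.38, while the cochaperones Dnajb1 and Bag3 fell by 1.24 ± 0.28 and fell by 0.95 ± 0.25. The list summed to 8172 ± 979 CPM (SD, n = 3) in control sham and 6529 ± 538 in control overload, and to 7538 ± 304 in cdKO sham and 6864 ± 1198 in cdKO overload. The control libraries did not overlap between loads in this sum (7568 to 9302 CPM after sham, 6110 to 7136 after overload). In cdKO the sums were 7831, 7224 and 7558 CPM after sham and 6093, 6254 and 8244 after overload, so cdKO overload 3 lay above every cdKO sham. The part of these genes in the fall of the 40 was not tested.

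**Figure D5:**
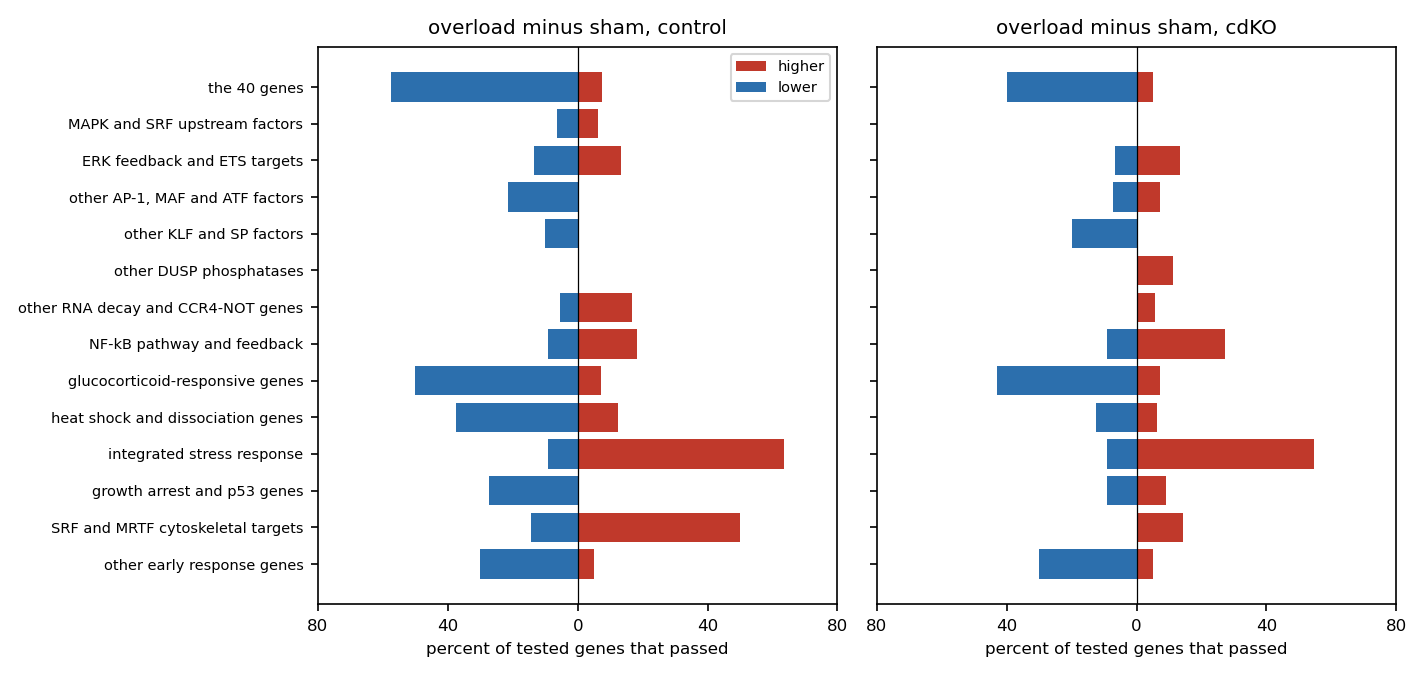
Percent of the tested genes of each list that passed as higher (red, right) or lower (blue, left) from sham to overload, in control (left panel) and cdKO (right panel). The 40 genes have 57.5% lower in control and 40% in cdKO, and the integrated stress response list has most of its calls on the higher side.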

How the data were processed

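Sorted muscle mesenchymal progenitors were profiled in 12 libraries, 3 in each of 4 groups of genotype and load, by a low-input protocol that reads 3′ ends (CEL-Seq2, from the citation in the labels' protocols). The authors deposited raw counts per gene. The submitters' processing notes name HISAT2 2.2.1, Trim Galore 0.6.6, DESeq2 1.26.0 and featureCounts 2.0.1, and the build GRCm38. No source used here gives the strand setting, annotation release or use of molecular identifiers. Columns were mapped to samples by their labels and 0 were left unused. Totals of 336437 to 1564581 counts put 3 counts at 1.95 to 9.72 CPM, which covers counting error only.

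Genes were kept with filterByExpr, scaled by TMM and tested in edgeR 4.0.16 (R 4.3.3) with 1 robust quasi-likelihood model over all 12 libraries and a mean per group. Benjamini-Hochberg adjustment ran over all 8161 tested genes, with a threshold of 0.05. SEs came from the F statistics and 95% intervals from the model's degrees of freedom. The script was tested on simulated data. Alternatives were DESeq2 1.42.0, limma 3.58.1 (voom with quality weights), DESeq2 size factors, no filter, the replicate block, only the compared groups, counts thinned to the smallest library, and each library left out. A Y-linked covariate and leaving out 2 overloaded libraries were chosen after seeing the data. The 40 genes and the 13 lists were chosen with earlier results of these data known. A gene taken out of the lists is not reported here. Genes that passed in any comparison are given in every library, and up to 4 genes a list, those with the smallest p in control among those that passed, are named. Dusp10, in no such place, was named after its values were seen.

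Counts of 2 libraries of a group never agreed within sampling noise (chi-square over degrees of freedom from 3.39 to 23.4). Coordinates and overlaps came from GENCODE for GRCm38 (40 of 40 genes matched, 13 overlapping another gene, 12 of them on the opposite strand). Promoter windows came from RefSeq for GRCm38.p6, with chromosome 18 left out.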

Additional observations from a re-analysis of the deposited data

How the results depend on the processing

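Of the 44 member calls, 26 in control and 18 in cdKO, 822 of 923 values under the alternatives stayed on the same side of the threshold, 101 missed it and 0 changed sign. With the Y-linked level as covariate 14 members passed in control and 622 genes in all, in place of 26 and 1768; the cause was not tested. Leaving out 1 library gave 18 to 27 members in control and 9 to 21 in cdKO, with 1060 to 2508 and 423 to 1287 genes in all. The 9 came without cdKO overload 1 or cdKO overload 3, and the 21 without cdKO overload 2 or control overload 1; the cause was not tested. Without a filter 20 and 16 members passed, beside 702 genes in all in cdKO in place of 1065. The genotype comparisons and the interaction had 0 to 0 members in every setting, with 1 to 34 genes in all after overload and 0 to 10 for the interaction. With the replicate block 25 members passed in control, 18 in cdKO and 0 elsewhere, and Nfkbia in control (-0.77, adjusted p = 0.054) was the 1 call lost. Deviations of same-numbered libraries from their group means correlated at -0.20 to 0.27, and the numbers were not taken as pairs. Libraries correlated best with their own number in 5 of 6, 3 of 6, 4 of 6 and 0 of 6 cases over the 4 pairs of groups, a hint from the data and not from the design. Depth limits Dusp5, Egr3 and Egr2, which had under 10 counts in at least 1 library.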
